A study of Mus musculus with 6 samples.

Results

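Glucose uptake, glycolysis, the pentose phosphate pathway and the tricarboxylic acid (TCA) cycle were followed through 37 genes in regulatory T cells (Treg) from mouse spleen. The genes were taken from a list of symbols, and all 37 were found among the 36811 rows of the deposited expression table. Of these, 36 had a mean of 1 FPKM (fragments per kilobase of transcript, scaled to the size of the library) or more and were tested within a fit of 11979 genes. Hk2 was the exception, with a mean of 0.952 FPKM. By role, 2 genes serve uptake, 7 the first steps of glycolysis, 5 its later steps and 4 the making and transport of lactate. Of the rest, 3 belong to the oxidative and 3 to the non-oxidative branch of the pentose phosphate pathway, 3 to the pyruvate dehydrogenase gate and 10 to the TCA cycle.

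The 6 libraries were made from Treg of C57BL/6 mice at 18 to 21 weeks of age. In 3 libraries, labelled cKO, the mice had floxed Bach2 alleles (Bach2 fl/fl), and in 3, labelled WT, Bach2 was unaltered (Bach2 +/+). Mice of either label carried EGFP and the recombinase Cre-ERT2 at Foxp3, the gene that defines Treg, so the controls held the recombinase too. CD4+ cells were enriched and Treg sorted by flow cytometry. Cre-ERT2 needs a ligand such as tamoxifen to act, and a treatment with it is not given in the sources used here. Bach2 is a transcriptional repressor that holds T cells in a resting state, and the comparison asks how Treg transcripts differ when its alleles are floxed. Nothing in the labels ties the libraries of a group to separate animals. The p-values below therefore measure a spread between libraries that may be technical.

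Resting T cells oxidise pyruvate in mitochondria, while activated T cells take up more glucose and turn much of it into lactate. Treg are known for leaning on mitochondrial oxidation, and their glycolysis rises when they divide or migrate. The pentose phosphate pathway branches from glucose 6-phosphate and yields NADPH and ribose, and pyruvate dehydrogenase admits pyruvate to the TCA cycle. Transcript levels do not measure flux through any of these routes.

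From the steps between low FPKM values, the scale of the libraries was estimated at 3100000 to 5000000 fragments. Bach2 (ENSMUSG00000040270) was at 7.88, 9.19 and 6.44 FPKM in cKO replicates 1 to 3, against 3.29, 8.25 and 4.80 FPKM for WT, so it was not lower in the libraries with floxed alleles (log2 difference 0.52, limma adjusted p = 0.925). The value covers the whole gene, and which exons are floxed is not given in the sources used here. Every direction below rests on the labels alone. The Treg markers were all detected, with sums of 864 to 1135 FPKM (cKO) and 899.5 to 1087 FPKM (WT), and Foxp3 itself lay between 5.16 and 9.44 FPKM. All 6 Treg markers had the higher mean in cKO. Of all genes tested, 55.0% had a log2 difference above 0. Markers of B cells (5 genes) summed to 119 to 157 FPKM (cKO) and 106 to 151 FPKM (WT), and 4 of the 5 had the higher mean in cKO. Most of that sum was Cd79b, at 99.4 against 98.8 FPKM in the means. The sum of 8 myeloid markers reached 969 FPKM in cKO 2 and lay between 364 and 448 FPKM elsewhere. S100a8 alone gave 545 FPKM of the sum in cKO 2 and 74.6 to 152 FPKM in the other libraries. Cst3 gave 293 FPKM there and 149.6 to 206 FPKM elsewhere. Lyz2 was also highest in cKO 2, at 83.2 FPKM, while Csf1r was lowest there, at 3.23 FPKM. Itgam was highest in WT 2, Cd14 and Fcer1g in cKO 3, and Tyrobp in cKO 1. The mean of all 8 myeloid markers was higher in cKO. The sum of 8 markers of dividing cells was 116 to 173 FPKM (cKO) and 63.0 to 95.5 FPKM (WT), with the higher mean in cKO for all 8. Markers of CD8 and NK cells (6 genes) summed to 105 to 131 FPKM (cKO) and 82.8 to 104 FPKM (WT). Nkg7 carried most of that sum (93.2 against 67.1 FPKM in the means), 3 of the 6 had the higher mean in cKO, and Klrd1 (0.294 against 2.20 FPKM) and Klrb1c (0.637 against 1.24 FPKM) were lower there without overlap. Markers of platelets (4 genes) summed to 0.479 to 2.27 FPKM (cKO) and 0.266 to 1.29 FPKM (WT), and 3 of the 4 had the higher mean in cKO. No marker of these lists was at 0 in all libraries. In bulk samples fewer cells of a type and less RNA per cell cannot be told apart. What these markers contribute to any result was not tested.

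Promoters are shown for 4 genes of glucose entry and lactate transport because their values are described most fully below, though none passed a test. Each is given as the 250 bases before the RefSeq start site. The genes are the glucose transporter gene Slc2a1 (chr4:119108495-119108744, plus strand), the lactate and pyruvate transporter gene Slc16a1 (chr3:104638414-104638663, plus strand), the lactate exporter gene Slc16a3 (chr11:120948817-120949066, plus strand) and the hexokinase gene Hk2 (chr6:82774455-82774704, minus strand), on build GRCm38.p6. Sequences run 5′ to 3′ on the strand of the gene. Capitals mark ACGTG and GCGTG, cores of the hypoxia response element, and CACGTG, the E-box that Myc binds, on either strand. An E-box always holds ACGTG.
Slc2a1: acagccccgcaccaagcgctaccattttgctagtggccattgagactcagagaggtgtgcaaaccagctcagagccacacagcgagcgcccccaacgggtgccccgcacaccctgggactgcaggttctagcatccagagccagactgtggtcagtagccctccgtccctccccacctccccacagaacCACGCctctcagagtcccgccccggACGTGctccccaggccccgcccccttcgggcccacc
Slc16a1: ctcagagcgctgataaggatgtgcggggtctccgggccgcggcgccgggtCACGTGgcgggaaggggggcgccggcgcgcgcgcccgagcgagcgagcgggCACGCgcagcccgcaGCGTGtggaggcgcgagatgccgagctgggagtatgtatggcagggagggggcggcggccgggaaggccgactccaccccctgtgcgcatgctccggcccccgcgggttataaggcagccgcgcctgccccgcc
Slc16a3: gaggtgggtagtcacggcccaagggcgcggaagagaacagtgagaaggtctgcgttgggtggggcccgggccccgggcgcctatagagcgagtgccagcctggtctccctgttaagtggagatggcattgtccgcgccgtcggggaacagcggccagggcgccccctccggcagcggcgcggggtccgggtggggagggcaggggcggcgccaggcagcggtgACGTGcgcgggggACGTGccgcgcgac
Hk2: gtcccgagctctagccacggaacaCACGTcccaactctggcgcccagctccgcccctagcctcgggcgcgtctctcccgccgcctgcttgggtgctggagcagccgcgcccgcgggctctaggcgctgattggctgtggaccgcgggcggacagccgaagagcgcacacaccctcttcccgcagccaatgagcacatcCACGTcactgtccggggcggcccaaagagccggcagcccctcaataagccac

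All 4 windows held ACGTG. It lay 36 bases before the start of Slc2a1, 27 and 14 bases before that of Slc16a3, and 226 and 52 bases before that of Hk2. In Slc16a1 it was part of an E-box 200 bases before the start, the only E-box in the 4 windows. None of the 4 held TGANTCA, the letters shared by AP-1 and Bach sites. Over the whole set, windows were found for 35 of the 37 genes and not for Slc2a3 and Idh3a, and there were 49 because some genes have several starts. ACGTG occurred in 38.8% of the 49 (13 genes), against 16.6% of the 32851 windows of all genes. GCGTG occurred in 61.2% (25 genes) against 28.2%, CACGTG in 10.2% (Ldha, Ogdh and Slc16a1) against 6.02%, and TGANTCA in 2.04% (Aldoa) against 6.75%. These are matches of letters in short windows, some of which overlap, and the windows of all genes were not matched on base composition.

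No gene of the 36 was called at an adjusted p of 0.05 by limma with Benjamini-Hochberg adjustment, where 0.0250% of all 11979 genes were called (0.00835% higher and 0.0167% lower in cKO). None of the 36 had an unadjusted p under 0.05 either, against 5.37% of all genes (3.59% higher, 1.78% lower). The groups did not overlap in 4 of the 36, a share of 11.1%. Idh3g and Sucla2 were higher in cKO, where 6.96% of all genes were, and Slc2a1 and Slc16a1 lower, where 3.75% were. That share is near the 10.7% of all genes whose groups did not overlap. The split turned on the scaling, with 5 higher and 1 lower after libraries were set to equal FPKM sums and 0 higher and 4 lower after quantile normalization. Over all 11979 genes these scalings gave 1579 higher and 175 lower, and 625 higher and 627 lower. The FPKM sums ran from 1502822 to 1940807 by library, and the 4 highest rows of a library held 32.6% to 47.4% of its sum. Equal sums therefore depend much on few rows. The median log2 difference (cKO minus WT, on the log2(FPKM + 1) scale) was 0.050 over the 36 and 0.033 over all genes tested, and 23 of the 36 lay above 0 (63.9%, against 55.0% of all genes). In 33 of the 36 the 95% interval lay between -1 and 1, a factor of 2 either way in FPKM + 1. It did so in 7917 of all 11979 genes. At low levels, as for Rpia (2.20 FPKM), the limits span a larger factor in FPKM. The intervals of Hk1, Slc16a1 and Slc16a3 reached past these limits.

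**Figure D1:**
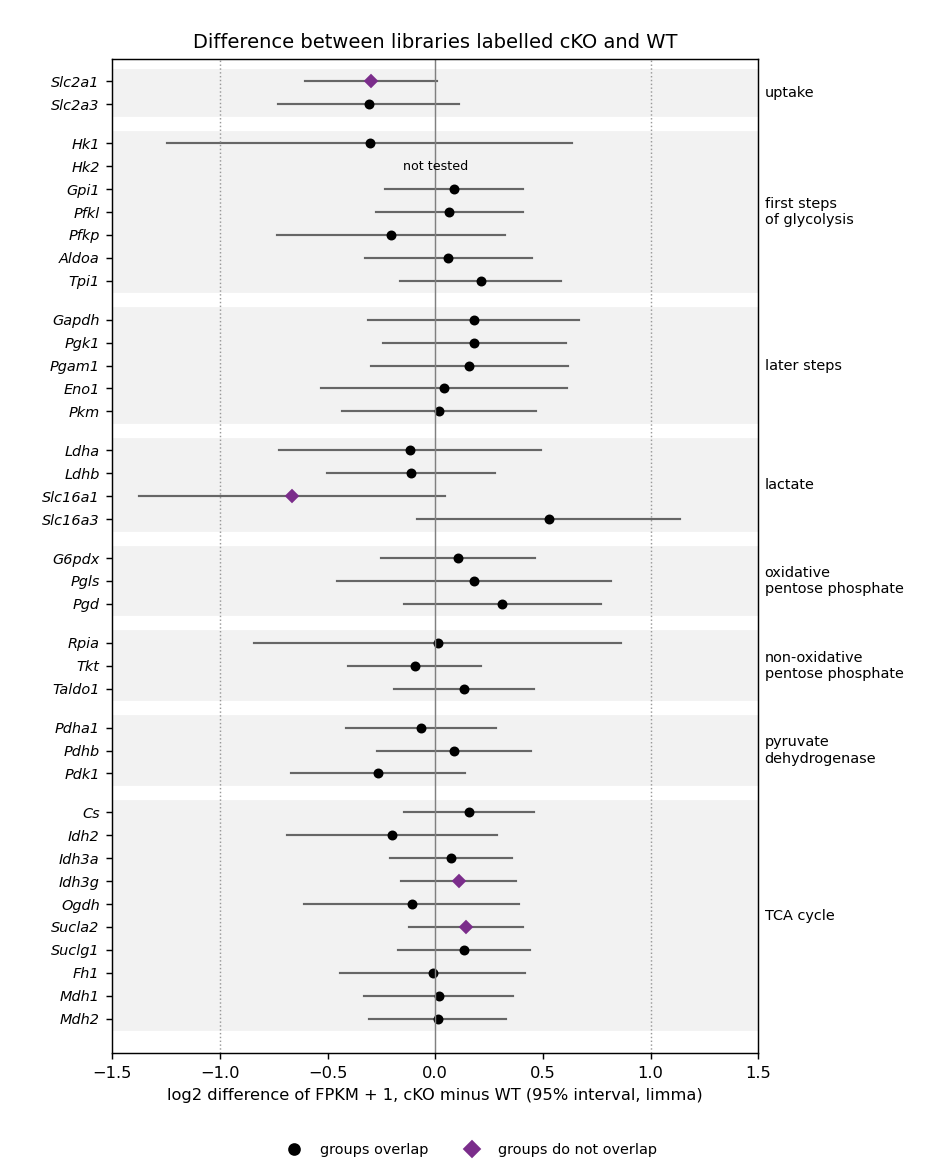
Difference of log2(FPKM + 1), cKO minus WT, for the 36 tested genes (point) with its 95% interval from limma (line), by route. Dotted lines mark a factor of 2 in FPKM + 1, and diamonds the genes whose groups do not overlap. Every interval spans 0, and 33 of 36 lie within the dotted lines.

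The 37 genes covered a 1640.1-fold range of FPKM. Eno1 (1561 FPKM over the 6 libraries) and Ldha (1125 FPKM) were above 1000 FPKM, 31 genes lay between 10 and 1000 FPKM, and Slc16a1, Slc16a3, Rpia and Hk2 lay below 10 FPKM. No gene was listed at 0 in any library. In 31 of the 37 the highest library was within 2-fold of the lowest. The other 6 were Hk1, Hk2, Slc16a1, Slc16a3, Pgls and Rpia.

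**Figure D2:**
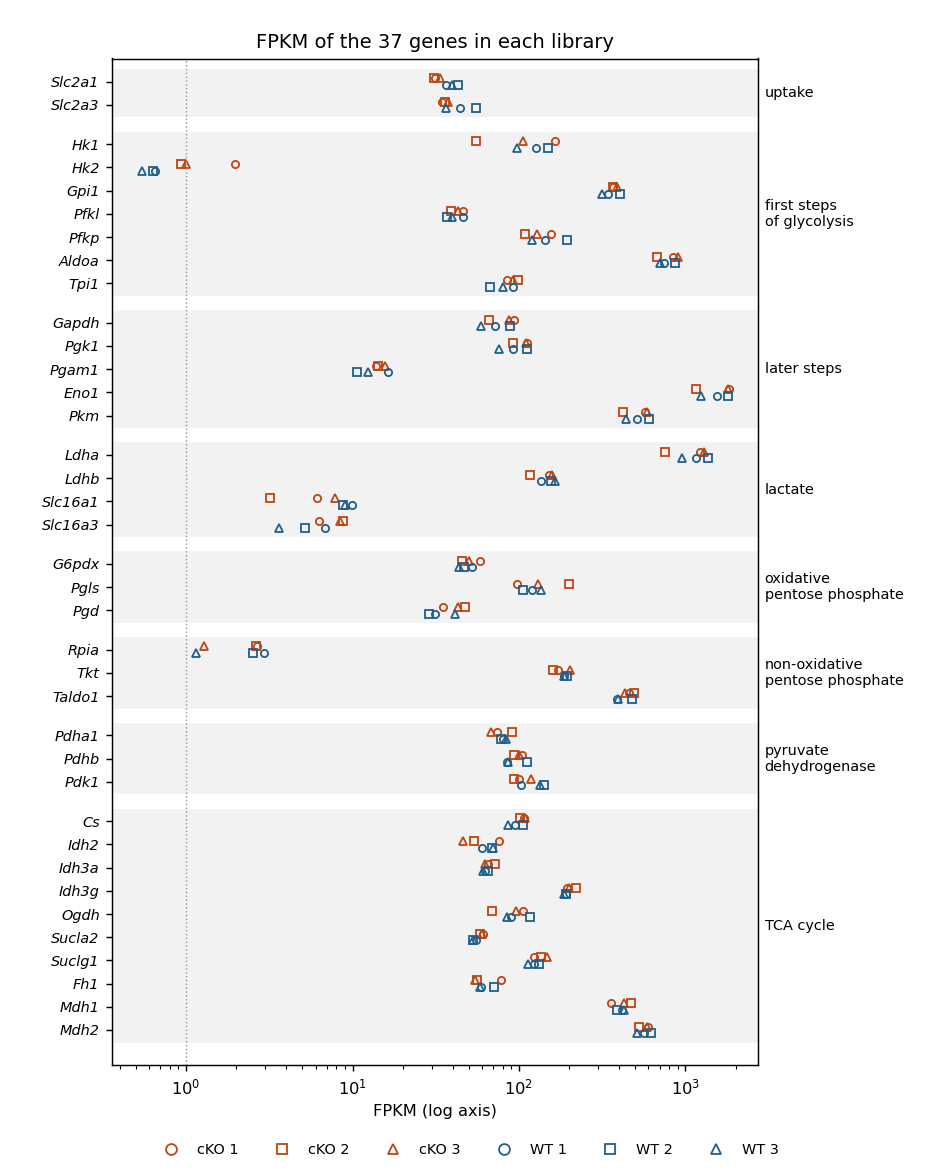
FPKM (log axis) of each of the 37 genes in the 6 libraries, by route; colour gives the group, symbol the replicate number, and the dotted line 1 FPKM. Most genes hold their level across libraries, and 6, among them Hk1, Hk2 and Slc16a1, spread over more than 2-fold.

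Glucose enters T cells through the transporters GLUT1 and GLUT3, encoded by Slc2a1 and Slc2a3. Slc2a1 (ENSMUSG00000028645) was at 31.3, 31.1 and 33.6 FPKM in cKO replicates 1 to 3, against 36.5, 42.8 and 39.6 FPKM for WT. Each cKO library lay below each WT library, and the WT mean was 1.24-fold the cKO mean. The log2 difference of -0.30 (SE 0.128, 95% interval -0.61 to 0.0063) had an unadjusted p of 0.0537 and an adjusted p of 0.925 by limma. Slc2a3 (ENSMUSG00000003153) was at 34.4, 35.8 and 37.6 FPKM in cKO replicates 1 to 3, against 44.2, 55.4 and 36.5 FPKM for WT, with WT 3 inside the cKO range. Its log2 difference was -0.31 (SE 0.176, limma adjusted p = 0.925), and -0.16 without WT replicate 2, its highest library. Of the FPKM of both transporters, Slc2a1 held 46.5% to 47.7% in cKO and 43.6% to 52.1% in WT, so the ranges overlapped.

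Hexokinases trap glucose as glucose 6-phosphate, and Hk1 was by far the main one. Hk1 (ENSMUSG00000037012) was at 166, 55.4 and 105 FPKM in cKO replicates 1 to 3, against 126, 150.4 and 96.7 FPKM for WT. The highest and the lowest library both carried the cKO label, 2.99-fold apart. The log2 difference of -0.31 (limma adjusted p = 0.952) was 0.11 without cKO replicate 2. Hk2 (ENSMUSG00000000628), the hexokinase induced in activated T cells, was at 1.95, 0.936 and 0.996 FPKM in cKO replicates 1 to 3, against 0.654, 0.630 and 0.541 FPKM for WT. All cKO libraries lay above all WT libraries, 2.13-fold in the means, but an estimated 11 to 40 fragments a library stand behind these values. Hk2 was below the minimum level for the test, and with no filter its log2 difference was 0.49 (limma, unadjusted p = 0.0712, adjusted p = 0.886). The library with the most Hk2, cKO 1, also had the highest sum of dividing cell markers, 173 FPKM, and their part in the Hk2 level was not tested. Of the FPKM of Hk1 and Hk2 together, Hk2 held 0.939% to 1.66% in cKO and 0.417% to 0.557% in WT.

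The other 5 genes of the first steps did not pass, and their groups overlapped. Gpi1, the isomerase that makes fructose 6-phosphate, was at 375 ± 13.2 against 355 ± 44.1 FPKM (mean ± SD, n = 3, cKO against WT here and below). Phosphofructokinase, the committed step of glycolysis, was mainly of the platelet type, with Pfkp at 131 ± 24.0 against 153 ± 37.8 FPKM. The liver type, Pfkl, was at 42.8 ± 3.51 against 41.0 ± 4.74 FPKM. Aldoa, the aldolase that splits the sugar, was at 807 ± 114 against 772 ± 86.0 FPKM. Tpi1, which interconverts the triose phosphates, was at 91.9 ± 6.87 against 79.8 ± 12.8 FPKM and had the highest log2 difference among the tested genes of this route, 0.21 (SE 0.156, limma adjusted p = 0.925).

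The later steps recover ATP and end in pyruvate. Eno1, the enolase, had the highest level of the 37 genes, at 1822, 1155 and 1794 FPKM in cKO replicates 1 to 3, against 1538, 1810.0 and 1248 FPKM for WT. Its low libraries were cKO 2 and WT 3, so the spread ran within each group, and the log2 difference was 0.040 (SE 0.239, limma adjusted p = 0.996). Pkm, the pyruvate kinase of most tissues, was at 572, 423 and 585 FPKM in cKO replicates 1 to 3, against 512, 604 and 442 FPKM for WT, again lowest in cKO 2 and WT 3. Pgk1, the kinase that first returns ATP, was at 105 ± 11.3 against 93.1 ± 17.8 FPKM, and the mutase gene Pgam1 at 14.6 ± 0.931 against 13.1 ± 2.98 FPKM. Their log2 differences were 0.18 (SE 0.177) and 0.16 (SE 0.192).

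Gapdh, the dehydrogenase of this segment and a common reference gene, was at 82.4 ± 14.4 against 72.9 ± 14.9 FPKM. Per length its level of 77.6 FPKM over the 6 libraries was near those of the enzymes just before and after it, Tpi1 (85.9 FPKM) and Pgk1 (98.99 FPKM). Other glycolytic genes lay far from it, with Aldoa (790 FPKM), Pkm (523 FPKM) and Eno1 (1561 FPKM) above and Pgam1 (13.8 FPKM) below. In the GENCODE M21 annotation 74 other genes matched at least 50% of the Gapdh coding sequence at 95% identity or more, and 69 of them were pseudogenes. Of the 74, only 40 had a value, with a mean above 0 for 27, and these values summed to 5.33% of the Gapdh value. Another 8 genes had 1 to 3 such copies (Gpi1, Pgk1, Pgam1, Eno1, Pkm, Ldha, Ldhb and Pdhb), and 28 had none. How reads shared with copies were counted is not given in the sources used here, so the level of these 9 genes against other genes is uncertain.

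The last glycolytic genes make lactate and carry it across the membrane. Ldha, the lactate dehydrogenase subunit that favours lactate, was at 1219, 751 and 1298 FPKM in cKO replicates 1 to 3, against 1165, 1369.8 and 949.7 FPKM for WT. Ldhb, the subunit that favours pyruvate, was at 142 ± 22.6 against 152 ± 15.1 FPKM (mean ± SD, n = 3). Of the FPKM of both subunits, Ldha held 86.6% to 89.2% in cKO and 85.2% to 89.8% in WT, and the groups overlapped in both genes and in their ratio.

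The genes of the monocarboxylate transporters MCT1 and MCT4 had differences of opposite sign, and neither passed. Slc16a1 (ENSMUSG00000032902), which encodes MCT1, was at 6.13, 3.18 and 7.85 FPKM in cKO replicates 1 to 3, against 9.87, 8.71 and 8.95 FPKM for WT. No cKO library reached the WT range, and the WT mean was 1.60-fold the cKO mean. Its log2 difference was -0.66 (SE 0.297, limma unadjusted p = 0.0623, adjusted p = 0.925), and -0.36 without cKO replicate 2, its lowest library. Slc16a3 (ENSMUSG00000025161), which encodes MCT4, the exporter of strongly glycolytic cells, was at 6.29, 8.75 and 8.40 FPKM in cKO replicates 1 to 3, against 6.79, 5.21 and 3.62 FPKM for WT. The groups overlapped through WT 1 alone. Its log2 difference was 0.53 (SE 0.256, limma unadjusted p = 0.0805, adjusted p = 0.925), and 0.33 without WT replicate 3. Myeloid cells also express Slc16a3, and cKO 2 had both its highest value and the highest myeloid marker sum, most of it S100a8. Cst3 and Lyz2 were also highest in cKO 2, and Csf1r was lowest there. Itgam was highest in WT 2, Cd14 and Fcer1g in cKO 3, and Tyrobp in cKO 1. In cKO 3 Slc16a3 was nearly as high as in cKO 2, with a myeloid sum of 373 FPKM. The part of such cells in the Slc16a3 level was not tested. Without cKO replicate 2 the log2 difference was 0.45.

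The share of Slc16a3 in the pair was 50.7%, 73.3% and 51.7% in cKO replicates 1 to 3, against 40.8%, 37.4% and 28.8% for WT. The groups were thus apart, with cKO 2 well above the other libraries. The log2 ratio, with 1 FPKM added to each gene, was 0.45 ± 0.671 against -0.74 ± 0.326 (SD, n = 3), a difference of 1.19 (two-sided exact permutation test, p = 0.1, adjusted p = 0.25). The ratio of Hk2 to Hk1 was also apart, by 0.79 (two-sided exact permutation test, p = 0.1, adjusted p = 0.25). With 3 libraries against 3 no exact p can be below 0.1, and the adjustment is over 5 ratios compared. The other 3 overlapped, with differences of -0.27 for Pfkp to Pfkl (exact permutation p = 0.4), 0.0086 for Slc2a1 to Slc2a3 and -0.0057 for Ldha to Ldhb (exact permutation p = 1 for both).

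**Figure D3:**
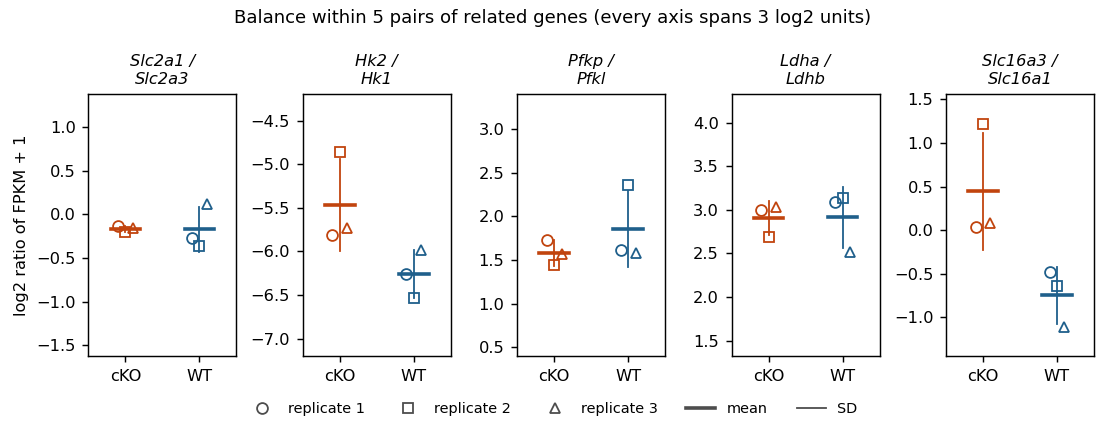
Log2 ratio of FPKM + 1 within 5 pairs of related genes in each library, with the group mean (thick line) and SD (thin line); every axis spans 3 log2 units. Groups are apart for Hk2/Hk1 and Slc16a3/Slc16a1, where the means differ by 0.79 and 1.19, and overlap in the other 3 pairs.

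In the oxidative pentose phosphate branch, which makes NADPH, the 3 genes had positive differences and none passed. G6pdx, the rate-setting dehydrogenase, was at 51.3 ± 6.62 against 47.6 ± 4.55 FPKM (mean ± SD, n = 3). Pgd, which makes ribulose 5-phosphate, was at 35.2, 47.6 and 42.9 FPKM in cKO replicates 1 to 3, against 31.2, 28.7 and 41.2 FPKM for WT. WT 3 lay inside the cKO range, and the log2 difference was 0.31 (SE 0.191, limma adjusted p = 0.925). Pgls, the lactonase between them, was at 97.3, 199 and 130.2 FPKM in cKO replicates 1 to 3, against 119.8, 105 and 136 FPKM for WT. Its highest value lay in cKO 2, and its log2 difference of 0.18 was -0.090 without cKO replicate 2. The myeloid sum was also highest in cKO 2, as were S100a8, Cst3 and Lyz2. Csf1r was lowest there, and Itgam, Cd14, Fcer1g and Tyrobp were highest in other libraries. The part of myeloid cells in the Pgls level was not tested.

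The non-oxidative branch links ribose to glycolysis. Taldo1 (transaldolase) was at 461 ± 27.3 against 422 ± 50.9 FPKM and Tkt (transketolase) at 178 ± 21.3 against 189.6 ± 4.92 FPKM (mean ± SD, n = 3). Rpia, the ribose 5-phosphate isomerase, was low throughout, at 2.20 ± 0.795 against 2.21 ± 0.943 FPKM, and rests on an estimated 8 to 24 fragments a library. The 95% interval of its log2 difference ran from -0.84 to 0.86.

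The pyruvate dehydrogenase genes overlapped between the groups. Pdha1, the catalytic subunit that is switched by phosphorylation, was at 74.0, 90.7 and 67.5 FPKM in cKO replicates 1 to 3, against 80.2, 77.6 and 83.5 FPKM for WT. Pdhb, its partner subunit, was at 99.3 ± 5.49 against 94.2 ± 15.4 FPKM (mean ± SD, n = 3). Pdk1, the kinase that switches the complex off, was at 100.3, 93.6 and 118 FPKM in cKO replicates 1 to 3, against 103, 141 and 134 FPKM for WT. WT 1 lay among the cKO libraries, and the log2 difference was -0.27 (SE 0.169, limma adjusted p = 0.925).

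The 10 genes listed for the TCA cycle left out aconitase and succinate dehydrogenase, and each varied by less than 2-fold over the 6 libraries. The highest library was 1.15 to 1.68 times the lowest for the 10 genes, and their log2 differences lay between -0.20 and 0.16. Sucla2, the ATP-forming subunit of succinyl-CoA ligase, was at 60.4, 58.2 and 59.9 FPKM in cKO replicates 1 to 3, against 55.3, 53.3 and 52.7 FPKM for WT. The groups were apart by a small step, 1.11-fold in the means (log2 difference 0.14, SE 0.111, limma adjusted p = 0.925). Idh3g, a regulatory subunit of NAD-dependent isocitrate dehydrogenase, was at 195, 219 and 201 FPKM in cKO replicates 1 to 3, against 191, 191 and 186 FPKM for WT. Its groups were apart by 1.08-fold (log2 difference 0.11, SE 0.112, limma adjusted p = 0.933), while its catalytic partner Idh3a overlapped, at 66.3 ± 4.43 against 62.9 ± 2.40 FPKM (mean ± SD, n = 3).

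Cs, the citrate synthase that admits acetyl-CoA to the cycle, was at 108, 102 and 109 FPKM in cKO replicates 1 to 3, against 95.05, 106 and 85.8 FPKM for WT. WT 2 lay inside the cKO range. Suclg1, the subunit shared by both succinyl-CoA ligases, was at 135 ± 11.7 against 123 ± 9.23 FPKM (mean ± SD, n = 3). Idh2, the NADP-dependent mitochondrial enzyme, had the lowest log2 difference of the route, -0.20 (limma adjusted p = 0.933), with 76.2, 53.9 and 45.9 FPKM in cKO replicates 1 to 3, against 60.2, 68.4 and 70.2 FPKM for WT; the highest and the lowest library were both cKO. Ogdh, of the oxoglutarate dehydrogenase complex, was at 90.2 ± 19.2 against 96.7 ± 16.9 FPKM, and the fumarase gene Fh1 at 62.8 ± 13.1 against 62.7 ± 6.89 FPKM. The malate dehydrogenase genes had the highest levels of the route, the mitochondrial Mdh2 at 569 ± 37.4 against 566 ± 56.0 FPKM and the cytosolic Mdh1 at 417 ± 57.7 against 409.9 ± 21.4 FPKM.

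Set side by side, the routes had small median log2 differences. The median was -0.30 for uptake, 0.063 for the first steps, 0.16 for the later steps and -0.11 for lactate. It was 0.18 for the oxidative and 0.011 for the non-oxidative branch, -0.064 for pyruvate dehydrogenase and 0.045 for the TCA cycle. Uptake, with 2 genes, was the only route whose library means did not overlap between the groups. Relative to the 6 libraries, its mean log2(FPKM + 1) was -0.20, -0.17 and -0.085 in cKO replicates 1 to 3, against 0.087, 0.36 and 0.0098 for WT. With the libraries scaled to equal FPKM sums the uptake median was -0.15, while the median of all genes tested moved to 0.17. Without WT replicate 2 the uptake median was -0.20. The lactate median was 0.079 without cKO replicate 2 and 0.043 with equal FPKM sums, and the later steps median 0.035 without WT replicate 3. The later steps were high in cKO 1 (0.18), cKO 3 (0.19) and WT 2 (0.10) and low in cKO 2 (-0.19) and WT 3 (-0.28). The TCA cycle stayed between -0.081 and 0.080 in the 6 libraries.

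**Figure D4:**
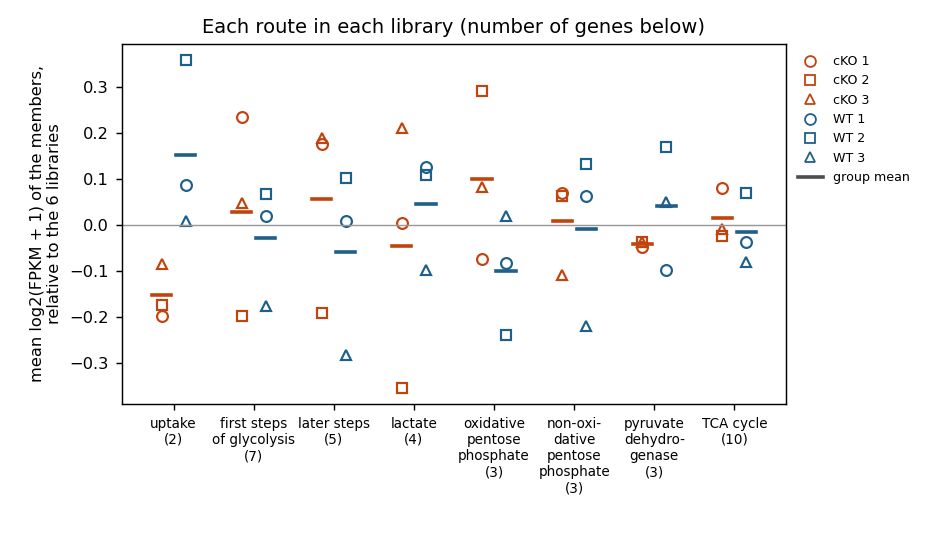
Mean log2(FPKM + 1) of the genes of each route in each library, relative to the 6 libraries (points), with group means (bars) and the number of genes in brackets. Uptake is lower in the 3 cKO libraries, and in the glycolytic routes cKO 2 and WT 3 lie low together.

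Many glycolytic genes were low in the same pair of libraries, which crosses the labels. In 8 of the 16 genes of glycolysis and lactate the lowest values were those of cKO 2 and WT 3 (Hk1, Pfkp, Aldoa, Gapdh, Pgk1, Eno1, Pkm and Ldha). The same held for 2 of the 10 TCA cycle genes (Ogdh and Mdh2) and for 12.4% of all genes tested. This pair of libraries was picked after the values were seen. The myeloid sum was 969 FPKM in cKO 2 and 364 FPKM in WT 3, and the estimated depths were 5000000 and 3900000 fragments. Of the FPKM of the 37 genes, the later steps held 24.9% to 30.4% by library and the TCA cycle 20.2% to 25.0%.

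Other genes of these pathways came from a list of 74 (66 enzymes and carriers and 8 regulators), of which 58 were tested. None was called at an adjusted p of 0.05 by limma, and 2 higher and 1 lower had an unadjusted p under 0.05, 5.17% of the 58 and near the background of 5.37%. Eno2, the enolase of neurons, was at 7.01, 5.21 and 2.17 FPKM in cKO replicates 1 to 3, against 0.931, 1.39 and 2.10 FPKM for WT. The groups were apart by a narrow gap, between cKO 3 and WT 3, and the log2 difference was 1.15 (SE 0.407, limma unadjusted p = 0.0266, adjusted p = 0.915). Bpgm, which makes the red cell metabolite 2,3-bisphosphoglycerate, was at 15.1, 30.8 and 19.8 FPKM in cKO replicates 1 to 3, against 10.3, 13.1 and 12.4 FPKM for WT (log2 difference 0.78, limma unadjusted p = 0.0250, adjusted p = 0.915). The 6 erythroid markers summed to 129.5 to 279 FPKM in cKO and 33.9 to 113 FPKM in WT, also without overlap. The higher mean in cKO held for 3 of the 6 (Hba-a1, Hba-a2 and Alas2), and their part in the Bpgm level was not tested.

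Pdp1, the phosphatase that switches pyruvate dehydrogenase on, was at 5.28, 3.36 and 5.56 FPKM in cKO replicates 1 to 3, against 8.13, 8.32 and 7.49 FPKM for WT (log2 difference -0.67, SE 0.221, limma unadjusted p = 0.0204, adjusted p = 0.915). It counters Pdk1, and both had negative differences. The groups did not overlap in 7 of the 58 genes, 12.1% and near the 10.7% of all genes tested, with Eno2, Bpgm, Slc2a8 and Sdhd higher and Pdp1, Pdpr and Myc lower in cKO. With equal FPKM sums 7 were higher and 1 was lower, against 1579 higher and 175 lower of all genes. Pdpr, the regulatory subunit of the phosphatase, was at 3.48 ± 1.39 against 5.04 ± 0.231 FPKM (mean ± SD, n = 3; log2 difference -0.48, limma adjusted p = 0.925). Myc, a transcription factor that drives glycolytic genes in activated T cells, was at 72.1, 73.9 and 82.8 FPKM in cKO replicates 1 to 3, against 97.3, 100.4 and 85.7 FPKM for WT (log2 difference -0.30, limma unadjusted p = 0.0508, adjusted p = 0.925). Hif1a, the hypoxia factor that binds ACGTG cores, was at 93.3 ± 14.1 against 80.4 ± 8.59 FPKM (mean ± SD, n = 3), with overlap. Slc2a8, Sdhd, Pdpr, Myc and Hif1a were chosen for mention after their values were seen.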

How the data were processed

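RNA of sorted spleen Treg was sequenced after SmartSeq2 amplification in 6 libraries, per the labels' protocols. The submitters' processing notes name FastQC, cutadapt, HISAT2 and the builds NCBIM37 and mm9, without versions. The deposited values are FPKM, which the name of the authors' table credits to cuffnorm. Annotation, strand and the treatment of multiply mapped reads are not stated in those notes. A symbol was found for 31840 of 36811 rows. The genes, routes, marker lists and tests were chosen with earlier results of these data known. Genes named are the 37, Bach2, Foxp3, and other pathway genes with an unadjusted p under 0.05 (up to 12); further ones are marked where they appear.

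Genes averaging 1 FPKM or more were fitted on log2(FPKM + 1) by limma 3.58.1 (R 4.3.3) with a variance trend and all 6 libraries, and p-values were adjusted over 11979 genes by Benjamini-Hochberg. FPKM are not counts, so no count test was used. The fit was tested on simulated data. Depth was estimated from the most frequent step of low values in genes with 1 transcript of at least 2000 bases, and fragments per gene from that depth and the longest coding transcript. Ratios of related genes were compared by exact permutation (scipy 1.17.1). Alternatives were other pseudocounts (0.1 and 5), no minimum or one of 5 FPKM, 3 other scalings, library weights, no trend, a replicate block and leaving out each library. Copies were searched with megablast in GENCODE M21, and promoters came from RefSeq on GRCm38.p6; the values use an older build, so no coordinates of theirs are given.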

Additional observations from a re-analysis of the deposited data

How the results depend on the processing

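None of the 36 tested genes was called by limma at an adjusted p of 0.05 in any of 16 alternative fits (smallest adjusted p 0.450), and 20 of them kept their sign in all 16. Fits with another minimum level, no trend or the replicate block leave a gene's log2 difference as it was, so they cannot turn a sign. With 3 libraries a group and a median standard error of 0.166 (log2), small changes are beyond these data. The causes of the changes below were not tested.

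With libraries scaled to equal FPKM sums, the median of all genes moved from 0.033 to 0.17, of the 36 genes to 0.21, of uptake to -0.15, of lactate from -0.11 to 0.043, of pyruvate dehydrogenase to 0.091 and of the TCA cycle to 0.20. Groups then did not overlap in 5 higher and 1 lower of the 36 genes. Of the other pathway genes 7 were higher and 1 lower without overlap, and of all genes 1579 and 175. At an adjusted p of 0.05 by limma, 1 gene of all was called lower. Signs turned for Ldha (0.040), Ldhb (0.045), Tkt (0.061), Pdha1 (0.091), Ogdh (0.047) and Fh1 (0.14). With quantile normalization, 0 higher and 4 lower of the 36 genes did not overlap. Of the 36, 1 (Slc2a1) was lower at an unadjusted p under 0.05, as were 2 of the other genes. The TCA cycle median was -0.040, and signs turned for Gpi1 (-0.024), Aldoa (-0.0049), Pkm (-0.091), Rpia (-0.017), Idh3a (-0.010), Mdh1 (-0.087) and Mdh2 (-0.070). With trimmed-mean scaling, 1 higher of the genes and 2 higher of the other genes did not overlap, and 1 (Slc2a1) and 2 were lower at an unadjusted p under 0.05. Signs turned for Eno1 (-0.0052), Pkm (-0.030), Rpia (-0.019), Mdh1 (-0.029) and Mdh2 (-0.035). With library quality weights, 2 of all genes were called higher. At an unadjusted p under 0.05 by limma, 4 other pathway genes and 909 of all genes were higher. The lactate median was 0.061, and signs turned for Ldha (0.073), Ldhb (0.049), Rpia (-0.36), Tkt (0.023), Ogdh (0.0094) and Foxp3 (-0.091).

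At an unadjusted p under 0.05, 1 of the 36 genes, Slc2a1, was lower with no filter and with a minimum of 5 FPKM. Of the other pathway genes, 2 were lower with no filter or a pseudocount of 5, and 1 was higher with a minimum of 5 FPKM. Without the variance trend 1 gene of all was called lower. With the replicate block 0 were called lower by limma, and 1 other pathway gene was higher at an unadjusted p under 0.05, as were 295 of all genes. After each gene's group means were taken out, same-numbered libraries correlated at -0.060, -0.18 and -0.017. Those deviations sum to 0 within each group of 3. The values gave no sign that the numbers pair the libraries, and they cannot exclude it. The Hk2 to Hk1 difference was 1.22 with a pseudocount of 0.1.

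Leaving out each library in turn gave 2 to 6 genes called higher and 2 to 13 lower over all genes. At an unadjusted p under 0.05 it gave 0 to 1 of the 36 higher and 0 to 1 lower. Of the other pathway genes it gave 1 to 2 higher and 0 to 3 lower, and of all genes 316 to 528 higher and 157 to 292 lower. Medians ran from -0.37 to -0.20 for uptake, 0.035 to 0.26 for the later steps, -0.23 to 0.079 for lactate, 0.095 to 0.42 for the oxidative branch, -0.11 to 0.18 for the non-oxidative branch and -0.18 to 0.027 for pyruvate dehydrogenase. Single genes ran from -0.67 to 0.11 (Hk1), -0.023 to 0.18 (Aldoa), -0.099 to 0.26 (Eno1), -0.094 to 0.17 (Pkm), -0.26 to 0.13 (Ldha), -0.20 to 0.026 (Ldhb), -0.090 to 0.42 (Pgls), -0.26 to 0.24 (Rpia), -0.18 to 0.027 (Pdha1), -0.24 to 0.072 (Ogdh), -0.17 to 0.083 (Fh1), -0.074 to 0.13 (Mdh1), -0.063 to 0.080 (Mdh2) and -0.065 to 0.25 (Foxp3).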
